A study of Mus musculus with 8 samples.

Results

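The iron handling and hepcidin genes Hamp, Hamp2, Bmp6, Id1, Tfr2, Tfrc, Trf, Slc40a1, Fth1 and Ftl1 were followed in mouse livers that differed in hepatocyte Trp53. They were taken by symbol after the Ensembl identifiers of the raw counts had been matched to GENCODE M21, and all 10 were found among 49585 genes. All 10 also passed the filter on low counts that left 16496 genes for testing.

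Whole-liver RNA of 8 male mice was sequenced after 3 months on a high-fat, choline-deficient (HFCD) diet that began at day 21 of age. The 3 LP+/+ controls were labelled as carrying no Alb-Cre, replicates 1 and 2 with an unrecombined Trp53fl/+ genotype and replicate 3 with an unrecombined Trp53wm-R245W/+ genotype. The study describes these controls both with and without Cre, and the labels were followed here. By the labels Cre itself also differs between LP+/+ and both altered genotypes, so in comparisons with LP+/+ the presence of Cre and the change of Trp53 cannot be told apart. The 2 LPfl/+ livers were Alb-CreTG, Trp53fl/+, and had 1 Trp53 allele deleted where Cre was active. The 3 LP245/+ livers were Alb-CreTG, Trp53wm-R245W/+, in which Cre turns an allele that expresses wild-type p53 into one that expresses the R245W mutant. The albumin promoter drives Cre in hepatocytes and cholangiocytes, so endothelial cells, Kupffer cells and blood cells kept their alleles unrecombined in every group, and all 3 groups ate the same diet. The comparisons asked whether loss of 1 allele, or the mutant, went with a different level of each iron gene.

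Hepcidin, the product of Hamp, is a liver hormone that lowers plasma iron by binding the iron exporter ferroportin (Slc40a1) and having it degraded. Hepatocytes raise Hamp when sinusoidal endothelial cells release BMP6, which signals through BMP receptors and SMAD proteins with HFE, hemojuvelin and transferrin receptor 2 as partners, and Id1 is a target of the same signal. Inside cells, iron regulatory proteins bind iron-responsive elements, short hairpins in mRNA, and when iron is low they hold back translation of ferritin and ferroportin and protect the mRNA of transferrin receptor 1 (Tfrc).

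The libraries held 26304526 to 31370714 counts. Values called normalized counts were scaled by the DESeq2 size factor of each library. Trp53 had 226, 258 and 202 normalized counts in the LP+/+ livers, 127 and 178 in the LPfl/+ livers, and 316, 294 and 193 in the LP245/+ livers, each in the order of the replicate numbers. Both LPfl/+ livers lay below all LP+/+ livers, as for 13.2% of all genes (log2 fold change -0.58, adjusted p = 0.718, edgeR). A level cannot check LP245/+, where the mutant allele is transcribed. All hepatocyte markers were detected, and Ly6g, a neutrophil marker, was the only gene of the cell type lists at 0 in every liver. Library numbers in the labels fell into 2 series, 1 with LP+/+ 2 and 3 and all LP245/+ livers (5 livers) and 1 with LP+/+ 1 and both LPfl/+ livers (3 livers). These series separated on principal component 1, which held 31.1% of the variance. LP245/+ and LPfl/+ never shared a series, so for that pair series and genotype cannot be told apart. A fit with the series as a covariate links that pair only through the controls, with LP+/+ 1 alone in the smaller series. For LPfl/+ against LP+/+ such a fit rests on LP+/+ 1 as the only control, and for LP245/+ against LP+/+ on LP+/+ 2 and 3. In whole tissue, fewer cells of a type and less RNA per cell cannot be told apart either. Log2 fold changes are given with their standard error (SE) and come from edgeR's quasi-likelihood test with Benjamini-Hochberg adjustment over all genes tested, unless another tool is named. The study's methods speak of littermate controls, but the labels tie no liver to a litter, and p-values measure the spread between these livers only.

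No member differed between genotypes after adjustment. A gene counted as called with an adjusted p of at most 0.05 and a log2 fold change of 1 or more in size. In LP245/+ against LP+/+, 0 of the 10 genes were called, where 0.00606% of all genes tested were. In LPfl/+ against LP+/+ and in LP245/+ against LPfl/+, edgeR called 0 genes of any kind (0% of those tested). DESeq2 called 10, 9 and 56 genes in the same order of comparisons, none of them a member.

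Before adjustment the members stood out little more. At an unadjusted p under 0.05 were 5.93%, 6.89% and 8.51% of all genes in the 3 comparisons, and 0, 1 (Tfrc) and 0 of the 10 members. The median log2 fold change of the members was -0.038, -0.22 and 0.16, beside medians over all genes of 0.0029, -0.0010 and 0.0039. With the library series as a covariate the members' medians became -0.17, -0.016 and -0.20, an alternative added after the data were seen. In LP245/+ against LP+/+, the livers of 0 of the 10 members did not overlap, where they did not for 11.8% of all genes (6.03% higher, 5.79% lower). In LPfl/+ against LP+/+, Tfrc and Ftl1 were lower without overlap, as were 13.2% of all genes, and 0 members were higher without overlap, where 11.9% of all genes were (25.1% in either direction). All 10 estimates were above 0 in LP245/+ against LPfl/+, as were 50.8% of all genes, but with the library series as a covariate 6 of the 10 were below 0. In that comparison Hamp2, Tfrc and Fth1 were higher without overlap (3 of 10), where 12.1% of all genes were higher and 13.3% lower (25.4% in either direction).

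**Figure D1:**
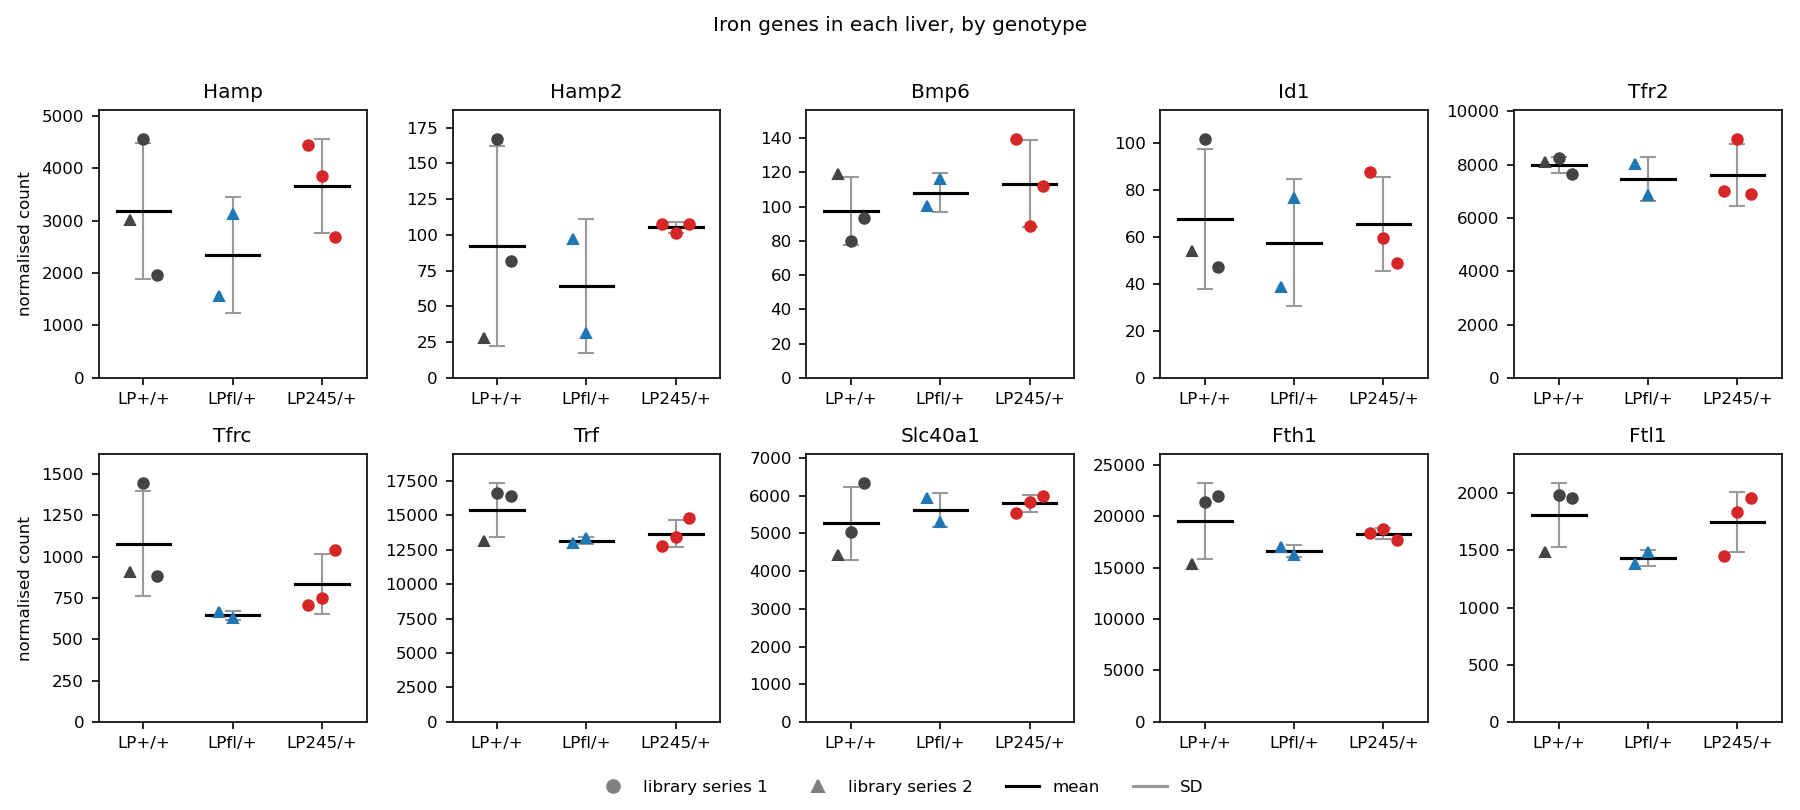
Normalized counts of the 10 iron genes in each liver (y axes start at 0), grouped by genotype on the x axis. Points are livers, circles for the library series with 5 livers and triangles for that with 3, black bars are means and grey bars SD. Hamp, Hamp2 and Id1 spread widely within genotypes, while Tfr2, Trf and Slc40a1 lie close together.

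**Figure D2:**
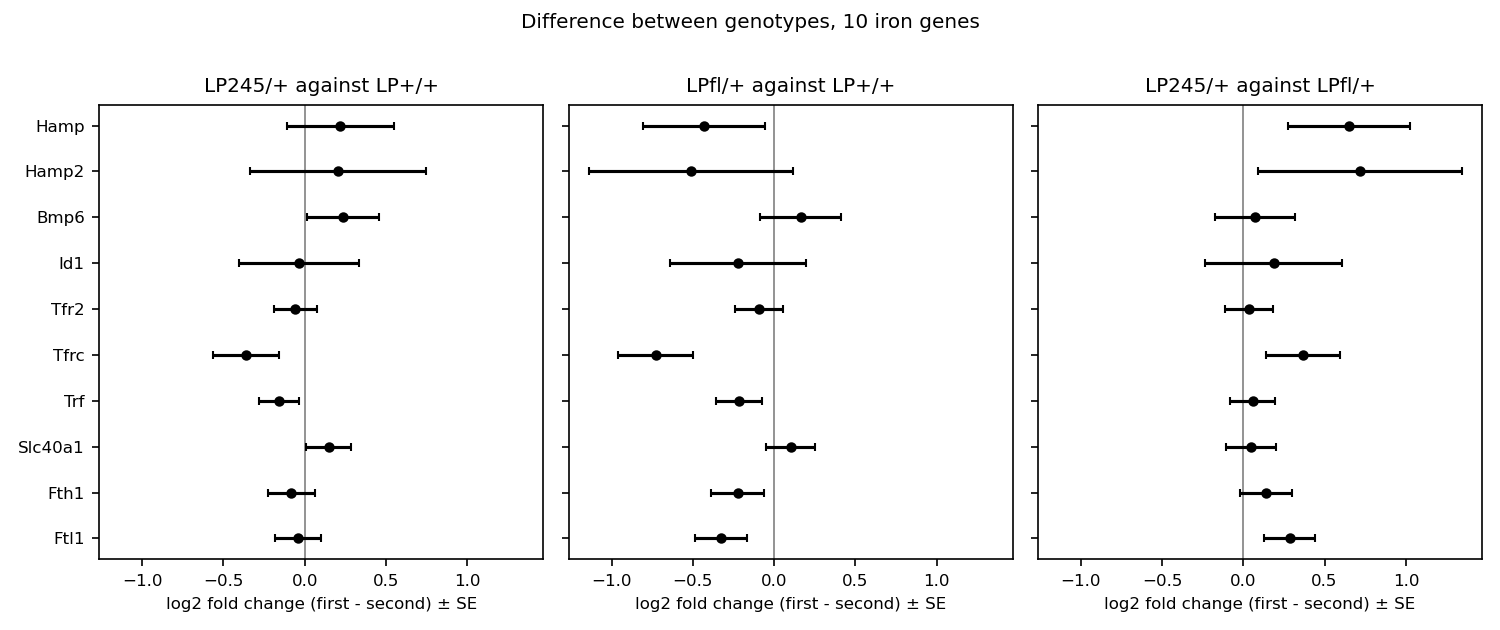
Log2 fold change of each of the 10 genes in the 3 comparisons (x axis, first genotype minus second), with points for the estimate and bars for its standard error. Tfrc in LPfl/+ against LP+/+, at -0.73, stands farthest from 0 relative to its error.

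Per length, Hamp, Fth1 and Trf had the highest levels of the set, in an order that depends on the length used. Over the 8 livers the median in TPM, a read density per exonic length scaled to the library, was 632 for Hamp, 419 for Fth1, 334 for Trf, 146 for Tfr2, 101 for Ftl1, 50.3 for Slc40a1, 13.6 for Hamp2, 10.7 for Tfrc, 4.10 for Id1 and 2.11 for Bmp6. Hamp ranged from 311 to 903 TPM, Fth1 from 374 to 501 TPM and Trf from 318 to 407 TPM, so the ranges of these neighbours met. Neighbours that met in the same way were Tfr2 (117 to 171 TPM) and Ftl1 (84.4 to 120.5 TPM), Hamp2 (4.07 to 23.3 TPM) and Tfrc (8.54 to 19.0 TPM), and Id1 (2.71 to 7.14 TPM) and Bmp6 (1.66 to 2.95 TPM). These ranges run across livers. Within every liver, on the same measure, Fth1 lay above Trf, Tfr2 above Ftl1 and Id1 above Bmp6. The order of Hamp and Fth1, and that of Hamp2 and Tfrc, changed between livers. Slc40a1 spanned 41.8 to 55.7 TPM. With the length of 1 representative transcript in place of the summed exons, a choice made after the data were seen, Fth1 (868 to 1164 TPM) had a higher median than Hamp (311 to 903 TPM), and Slc40a1 (112 to 149 TPM) met Ftl1 (117 to 167 TPM). The coefficient of variation of the normalized count was 49.7% for Hamp2, 34.6% for Hamp, 34.5% for Id1 and 30.5% for Tfrc, and for the other members it lay between 9.79% (Tfr2) and 18.2% (Bmp6).

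The levels of Trf and Ftl1 are uncertain. Of the 76-base windows of the Trf transcript, 78.5% were also present in Gm20425, an annotated gene that overlaps Trf on the same strand and had 0 counts in every liver. For Ftl1, 69.5% of windows recurred in 6 other annotated genes, among them Ftl1-ps1 (17 to 28 counts) and Gm15590 (13 to 25 counts). How the counting treated such reads is not given in the sources used here. Fth1 shared 2.26% of its windows with Gm6977 (0 to 4 counts), and the other members shared 0.

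Hamp (GRCm38 chr7:30942368-30944032, minus strand) encodes hepcidin, and its livers spread widely within every genotype. It had 3015, 4552 and 1967 normalized counts in the LP+/+ livers, 1561 and 3123 in the LPfl/+ livers, and 4456, 3852 and 2697 in the LP245/+ livers. The highest and the lowest liver differed 2.92-fold, and the ranges of all 3 genotypes overlapped. The log2 fold change was 0.22 ± 0.33 (SE) for LP245/+ against LP+/+ (adjusted p = 0.936, edgeR), -0.43 ± 0.37 for LPfl/+ against LP+/+ (adjusted p = 0.835) and 0.65 ± 0.38 for LP245/+ against LPfl/+ (adjusted p = 0.687). None of these exceeded the spread between livers. Without LP+/+ replicate 3, the lowest control, the first difference turned to -0.040, and within the series of 5 livers it was 0.17.

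Hamp2 (chr7:30922372-30924681, minus strand) is a second hepcidin gene of the mouse on the same chromosome. It had 28.0, 167 and 81.9 normalized counts in the LP+/+ livers, 97.3 and 31.3 in the LPfl/+ livers, and 107, 101 and 108 in the LP245/+ livers. The LP245/+ livers were the most alike (mean 105 ± 3.85 SD, n = 3, against 92.3 ± 70.1 in LP+/+, n = 3), and the low livers were LP+/+ 1 and LPfl/+ 2. Its log2 fold change was 0.20 ± 0.54, -0.51 ± 0.63 and 0.72 ± 0.63 in the 3 comparisons, and with the library series as a covariate these became -0.23, 1.20 and -1.43. Hamp2 made up 0.921% (Wilson 95% interval 0.642 to 1.32) of the summed Hamp and Hamp2 counts in LP+/+ 1 and 0.992% (0.700 to 1.41) in LPfl/+ 2, but 2.36% to 5.86% in the other livers. The intervals of those 2 livers did not reach that of LP245/+ 1, the lowest of the others (1.95 to 2.85), and they cover counting error only. The livers with least Hamp2 had intermediate Hamp.

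The genes are near copies, with 92.5% identity over 252 aligned positions of coding sequence, so their counts were also added, although no 76-base window was shared. The summed normalized count differed by 0.26 on the log2 scale for LP245/+ against LP+/+ (exact permutation test, two-sided, p = 0.7), by -0.43 for LPfl/+ against LP+/+ (exact permutation p = 0.5) and by 0.69 for LP245/+ against LPfl/+ (exact permutation p = 0.3). The smallest p these group sizes allow is 0.1, so no such test could have passed.

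Bmp6, the ligand (chr13:38345107-38500302, plus strand), was sparse. It had 119, 79.7 and 93.2 normalized counts in the LP+/+ livers, 100.3 and 116 in the LPfl/+ livers, and 139.5, 88.9 and 112 in the LP245/+ livers, and the groups overlapped. Its log2 fold change was 0.23 ± 0.22 for LP245/+ against LP+/+, 0.16 ± 0.25 for LPfl/+ against LP+/+ and 0.070 ± 0.25 for LP245/+ against LPfl/+. The 8 markers of sinusoidal endothelial cells, which make BMP6, summed to 15165 to 18024 normalized counts in LP+/+, 11819.9 to 14829 in LPfl/+ and 15426 to 17727 in LP245/+. In LPfl/+ against LP+/+, 7 of the 8 had lower estimates, as had 50.2% of all genes. Of the 8, 4 were lower without overlap, where 13.2% of all genes were. Dnase1l3 alone had an unadjusted p under 0.05, and none passed adjustment. The part of these cells in the Bmp6 values was not tested. Txndc5, with 5229 to 6357 counts, overlaps Bmp6 on the other strand, and the strand counted is not given in the sources used here, so reads of these genes cannot be told apart for certain.

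Id1, an inhibitor of DNA binding and a SMAD target, followed Hamp from liver to liver. It had 54.1, 102 and 47.1 normalized counts in the LP+/+ livers, 38.5 and 76.7 in the LPfl/+ livers, and 87.8, 59.6 and 48.9 in the LP245/+ livers. As for Hamp, the highest livers were LP+/+ 2 and LP245/+ 1, the lowest was LPfl/+ 1, and the groups overlapped. Its log2 fold change was -0.035 ± 0.37, -0.22 ± 0.42 and 0.19 ± 0.42, with adjusted p = 0.927 (edgeR) as the smallest. Across the 8 livers, Pearson's r of log2 CPM between Hamp and Id1 was 0.889 (exact permutation p = 0.00372, adjusted over the 45 pairs of members 0.0837) and Spearman's rho was 0.976 (exact permutation p = 0.000397, adjusted 0.00893). Without the 2 livers farthest from the median of Hamp, r was 0.823, and r of the deviations from the genotype means was 0.949. The library series hold 5 and 3 livers, too few for a correlation each, but in both the order of the livers by Hamp was the order by Id1.

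Of the 45 pairs, only Trf with Ftl1 passed adjustment by both measures (r = 0.853, exact permutation p = 0.000471, adjusted 0.0212, and rho = 0.976, exact permutation p = 0.000397, adjusted 0.00893), while Hamp with Id1 passed by Spearman's rho alone. Without the 2 livers farthest from the median of Trf, r was 0.873. Both genes were highest in LP+/+ 2, LP+/+ 3 and LP245/+ 3, all of the series of 5 livers, and within that series the livers stood in the same order for both. In the series of 3 the orders differed. Both genes are those whose counts share windows with other genes, and the part of this in the relation was not tested. Between Hamp and Hamp2, r = 0.165 (exact permutation p = 0.711), and between Hamp and its ligand Bmp6, r = 0.0817 (exact permutation p = 0.846).

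**Figure D3:**
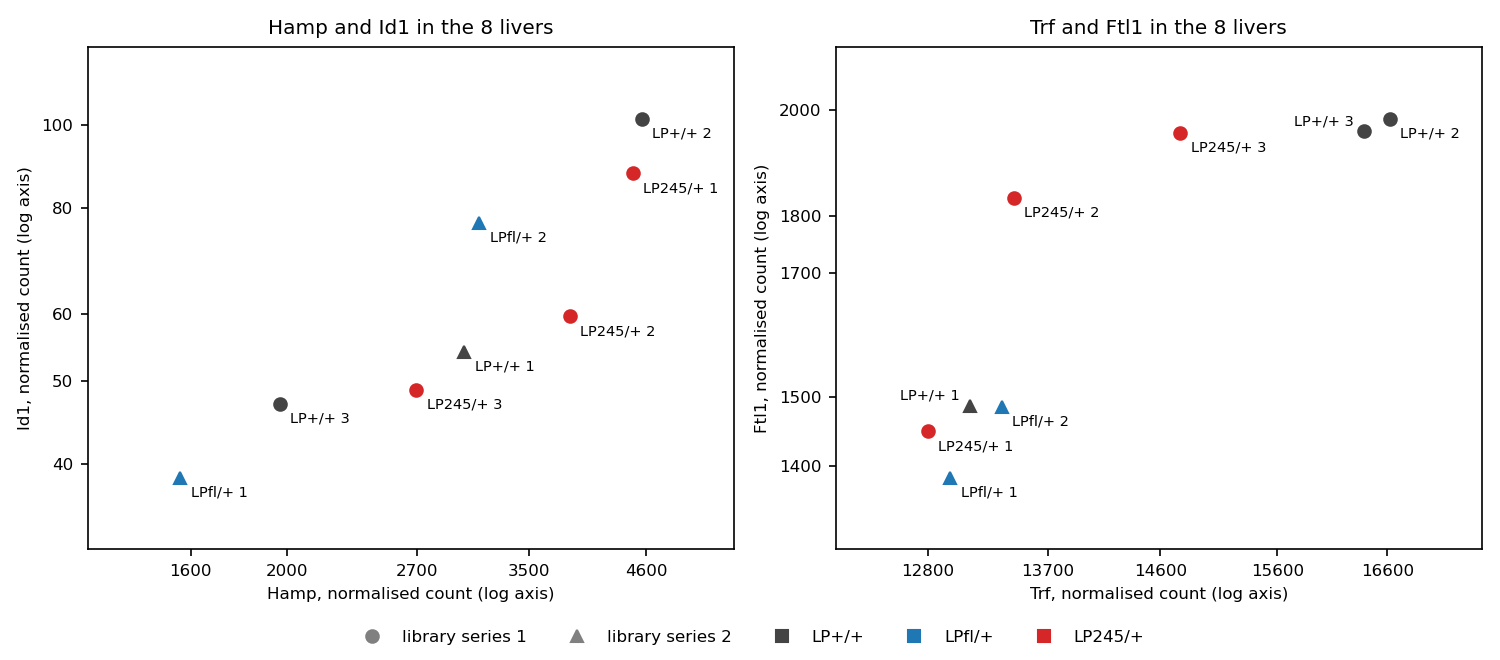
Normalized counts of Hamp with Id1 and of Trf with Ftl1 in the 8 livers, both axes logarithmic, with genotype as color and library series as marker shape. Livers high in Hamp are high in Id1 in both series, while the 4 livers lowest in Ftl1, which are also the 4 lowest in Trf, are LP245/+ 1 and the 3 livers of the smaller series.

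The 7 other BMP-SMAD targets, which are Id2, Id3 and Id4, the inhibitory Smad6 and Smad7, the transcription factor Atoh8 and the pseudoreceptor Bambi, varied in their relation to Hamp. With Hamp, r was 0.786 for Smad7, -0.732 for Id4, -0.714 for Atoh8, 0.603 for Id3 and between -0.243 and 0.237 for the others. None passed adjustment over the 7 (smallest adjusted p = 0.106, exact permutation test over 8 livers), and the relation was looked at after Hamp and Id1 had been seen. Without the 2 livers farthest from the median of Hamp, r was 0.553 for Smad7 and 0.0310 for Atoh8.

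Between genotypes, these targets had a median log2 fold change of -0.29 in LP245/+ against LP+/+ (5 of 7 estimates below 0), 0.30 in LPfl/+ against LP+/+ (6 of 7 above 0) and -0.65 in LP245/+ against LPfl/+ (6 of 7 below 0). Over all genes, 49.4%, 50.2% and 49.2% of estimates were below 0 in these comparisons. With the library series as a covariate the medians of the 7 targets became -0.14 (4 of 7 below 0), 0.0055 (4 of 7 above 0) and -0.076 (5 of 7 below 0). Smad6 alone had an unadjusted p under 0.05, in LP245/+ against LPfl/+ (-0.67 ± 0.30, adjusted p = 0.582, edgeR), and with the library series as a covariate it turned to 0.16 and without LPfl/+ replicate 2 it was -0.40. Id3 in LPfl/+ rests on 1 liver, LPfl/+ 2, with 1326 normalized counts beside 304 in LPfl/+ 1 and 391 to 816 in the other genotypes.

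By likeness alone, the gene closest to Hamp among the 16496 tested was Tmem50b (r = 0.984 over 8 livers), with 137, 193 and 121 counts in the LP+/+ livers, 86 and 144 in the LPfl/+ livers, and 169, 157 and 121 in the LP245/+ livers. Next came Gm47111 (r = 0.964), at 3 to 18 counts, and Icosl (r = 0.957), at 19 to 30 counts. In all, 20 genes passed r = 0.9 with Hamp, a description over livers that share a diet and a count table, with no test. Id1, with r = 0.889, was not among them.

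Transferrin receptor 2, which senses transferrin-bound iron on hepatocytes, was among the steadiest members. Tfr2 (chr5:137569840-137587481, plus strand) had 8095, 8248 and 7662 normalized counts in the LP+/+ livers, 8034 and 6864 in the LPfl/+ livers, and 7005, 8966 and 6896 in the LP245/+ livers. The groups overlapped, and its log2 fold changes were -0.058 ± 0.13, -0.094 ± 0.15 and 0.036 ± 0.15, all within the spread between livers.

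Hfe, a non-classical MHC class I protein whose loss causes iron overload, had lower estimates in both altered genotypes. It had 1480.1, 1724 and 1337 normalized counts in the LP+/+ livers, 882 and 1081 in the LPfl/+ livers, and 1156, 1275 and 1259 in the LP245/+ livers. The 3 genotypes did not overlap, and the LP245/+ livers lay between the others. Hfe was named for its small p, so this separation follows in part from that choice. Without overlap, 13.2% of all genes were lower in LPfl/+ and 5.79% lower in LP245/+, each against LP+/+. In LP245/+ against LPfl/+, 12.1% were higher without overlap. The log2 fold change was -0.62 ± 0.13 for LPfl/+ against LP+/+ (adjusted p = 0.697, edgeR), -0.29 ± 0.12 for LP245/+ against LP+/+ (adjusted p = 0.818) and 0.33 ± 0.13 for LP245/+ against LPfl/+ (adjusted p = 0.548). All 3 had an unadjusted p under 0.05, and none passed adjustment. Within the series of 3 livers, where LP+/+ 1 is the only control, the first was -0.59. With the library series as a covariate, which rests on the same control, it was -0.58. DESeq2 over all livers gave the first an adjusted p of 0.0865. Without LP+/+ replicate 2 the second was -0.19, and without LPfl/+ replicate 1 the last was 0.19. The first and second comparison use the same control livers. At an unadjusted p under 0.05, 2.67% of all genes were lower and 4.22% higher in LPfl/+ against LP+/+.

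Hemojuvelin, the BMP co-receptor that the annotation names Hfe2, was lowest in LP245/+. It had 2435, 1817 and 1960.3 normalized counts in the LP+/+ livers, 2223 and 2473 in the LPfl/+ livers, and 1489, 1780.3 and 1447 in the LP245/+ livers. Every LP245/+ liver lay below every other liver. Hemojuvelin too was named for its small p. Without overlap, 5.79% of all genes were lower in LP245/+ than in LP+/+, and 13.3% lower than in LPfl/+. The log2 fold change was -0.39 ± 0.13 against LP+/+ (adjusted p = 0.795, edgeR) and -0.58 ± 0.15 against LPfl/+ (adjusted p = 0.362, DESeq2 adjusted p = 0.0624), while LPfl/+ against LP+/+ gave 0.19 ± 0.15. Both of the former had an unadjusted p under 0.05 without passing adjustment. Within the series of 5 livers the first was -0.26, and without LP+/+ replicate 1, which leaves the same livers in this contrast, it was -0.25. With the series as a covariate the second was -0.21. The 3 livers of the smaller series were the 3 highest.

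Tfrc (chr16:32608920-32632794, plus strand), transferrin receptor 1, which takes up transferrin-bound iron, had its lowest levels in LPfl/+. It had 905, 1446 and 885 normalized counts in the LP+/+ livers, 666 and 627 in the LPfl/+ livers, and 705, 752 and 1042 in the LP245/+ livers. Both LPfl/+ livers lay below all 6 others, and LP+/+ 2 was far above the rest of its group. The log2 fold change for LPfl/+ against LP+/+ was -0.73 ± 0.23 (adjusted p = 0.697, edgeR, and 0.295 with DESeq2), for LP245/+ against LP+/+ it was -0.36 ± 0.20 (adjusted p = 0.831) and for LP245/+ against LPfl/+ it was 0.37 ± 0.23 (adjusted p = 0.716). Leaving out each liver in turn kept the first between -0.86 and -0.47, the latter without LP+/+ replicate 2, and within the series of 3 livers it was -0.49. Without the same liver LP245/+ against LP+/+ was -0.10 and without LP245/+ replicate 3 it was -0.56, while LP245/+ against LPfl/+ was 0.18 without LP245/+ replicate 3. Within the series of 5 livers, LP245/+ against LP+/+ gave -0.48, and with the series as a covariate LP245/+ against LPfl/+ gave 0.0047.

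Immature red cells carry much transferrin receptor, and red cell transcripts were low in the same 2 livers. The 8 erythroid and blood markers summed to 18667, 19735 and 14036 normalized counts in the LP+/+ livers, 9841 and 12814 in the LPfl/+ livers, and 15565, 9223 and 18611 in the LP245/+ livers. All 8 had lower estimates in LPfl/+ than in LP+/+ (median log2 fold change -0.85), as had 50.2% of all genes. Of the 8, 4 were at an unadjusted p under 0.05, where 2.67% of all genes were lower. Without overlap of livers, 6 were lower, where 13.2% of all genes were. None passed adjustment. LP+/+ 2 had the highest sum and the most Tfrc, but LP245/+ 2 had the lowest sum and more Tfrc than either LPfl/+ liver. The part of these cells in the Tfrc values was not tested. The genes most like Tfrc over the 8 livers were Rrp36 (r = 0.942), Snupn (r = 0.928) and Rnf14 (r = 0.928), and 14 genes passed r = 0.9.

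**Figure D4:**
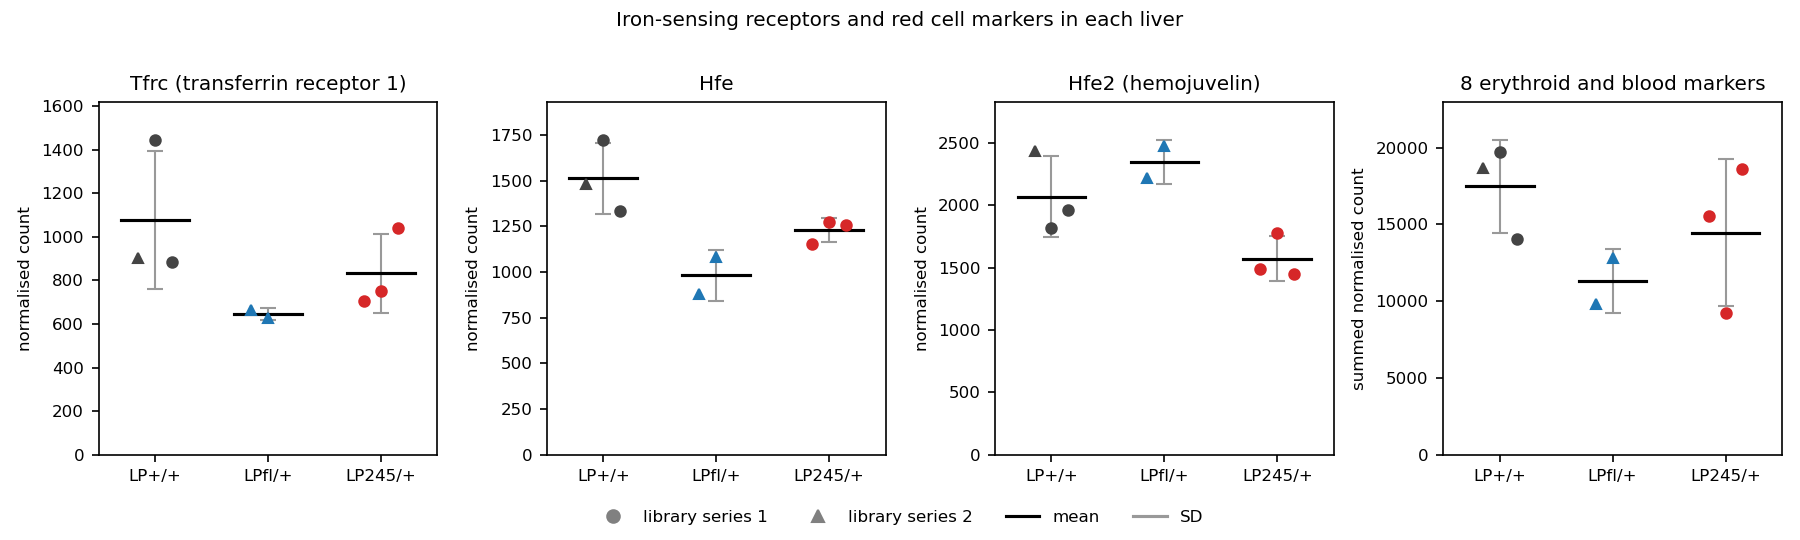
Normalized counts of Tfrc, Hfe and Hfe2 and the summed normalized counts of 8 erythroid and blood markers in each liver (y axes start at 0), by genotype. Black bars are means and grey bars SD, and circles and triangles mark the library series of 5 and of 3 livers. Hfe separates the 3 genotypes, Hfe2 is lowest in LP245/+, and Tfrc is lowest in both LPfl/+ livers, where the marker sum is also below that of every LP+/+ liver. Hfe and Hfe2 were chosen for a small unadjusted p in these comparisons.

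Trf (chr9:103204001-103230444, minus strand) encodes transferrin, the plasma carrier of iron. It had 13109.5, 16623 and 16387 normalized counts in the LP+/+ livers, 12964 and 13345 in the LPfl/+ livers, and 12800.2, 13435 and 14765 in the LP245/+ livers. The groups overlapped because LP+/+ 1 lay with the altered genotypes, and the log2 fold changes were -0.16 ± 0.12, -0.22 ± 0.14 and 0.057 ± 0.14. Within the library series the first was -0.27 and the second 0.0049, so the control liver that shared a series with LPfl/+ had the LPfl/+ level.

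Slc40a1 (chr1:45908068-45926523, minus strand) encodes ferroportin, the exporter that hepcidin removes from the membrane. It had 4440.4, 5051 and 6336 normalized counts in the LP+/+ livers, 5949 and 5306 in the LPfl/+ livers, and 5555, 5838 and 5994 in the LP245/+ livers, with overlap throughout. Its log2 fold changes were 0.15 ± 0.14, 0.10 ± 0.15 and 0.044 ± 0.15. Kupffer cells also make ferroportin, and their 6 markers summed to 7552 to 9041 normalized counts in LP+/+, 7760.0 to 10687 in LPfl/+ and 6514 to 7868 in LP245/+. All 6 had lower estimates in LP245/+ than in LP+/+ (median log2 fold change -0.16), as had 49.4% of all genes. At an unadjusted p under 0.05 were 0 of the 6, and their part in the Slc40a1 values was not tested.

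Fth1 (chr19:9980598-9985098, plus strand), the ferritin heavy chain with ferroxidase activity, had 15299, 21339 and 21958 normalized counts in the LP+/+ livers, 17035 and 16231 in the LPfl/+ livers, and 18345, 18785 and 17722 in the LP245/+ livers. The LP+/+ livers spanned the widest range and enclosed both other groups, and the log2 fold changes were -0.084 ± 0.14, -0.22 ± 0.16 and 0.14 ± 0.16. Ftl1 (chr7:45457944-45459884, minus strand), the light chain, had 1488, 1983 and 1958 normalized counts in the LP+/+ livers, 1384 and 1486 in the LPfl/+ livers, and 1449.8, 1832 and 1956 in the LP245/+ livers. Both LPfl/+ livers lay below the controls, LPfl/+ 2 only just below LP+/+ 1, and the log2 fold change was -0.33 ± 0.16 (adjusted p = 0.748, edgeR). Within the series of 3 livers it was -0.052, and that of Fth1 turned to 0.12. For both ferritins, as for transferrin, LP+/+ 1 stood nearer to the LPfl/+ livers of its own library series than to the other controls.

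Iron acts on these mRNAs through the hairpins shown here, which set the members under iron regulatory proteins apart from the hormone genes. The letters are from GENCODE M21 transcripts on GRCm38, 27 bases each, with the bulged C and the CAGTGN loop in capitals and a required stem of 5 paired bases between them.
Fth1: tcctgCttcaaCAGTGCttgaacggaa
Ftl1: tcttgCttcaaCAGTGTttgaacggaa
Slc40a1: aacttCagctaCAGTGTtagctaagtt
Tfrc: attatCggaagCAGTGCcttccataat
Tfrc: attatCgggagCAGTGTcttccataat
Tfrc: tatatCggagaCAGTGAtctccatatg
Tfrc: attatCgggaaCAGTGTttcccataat
The first 3 lie in 5′ untranslated regions, at chr19:9982733-9982759 (plus strand), chr7:45459780-45459806 (minus strand) and chr1:45925466-45925492 (minus strand). The 4 of Tfrc lie in its 3′ untranslated region, the first at chr16:32631220-32631246 and the last at chr16:32631711-32631737 (plus strand). The pattern was found in the 5′ untranslated regions of 21 of 21722 genes (0.0967%) and in the 3′ untranslated regions of 98 (0.451%). In ferritin and ferroportin mRNA the element governs translation, which counts of mRNA do not read.

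In the wider iron lists, 106 of 112 genes (members included) passed the filter on low counts, and edgeR gave 0 of them an adjusted p of 0.05 or less in any comparison. In LP245/+ against LP+/+, 3 were higher and 8 lower at an unadjusted p under 0.05 (2.83% and 7.55%, beside 3.55% and 2.38% of all genes). In LPfl/+ against LP+/+ it was 0 higher and 4 lower (3.77% lower, beside 2.67% of all genes), and in LP245/+ against LPfl/+ it was 5 higher and 4 lower (4.72% and 3.77%, beside 4.07% and 4.44%). The median log2 fold changes over the 106 genes were -0.034, -0.061 and 0.030.

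**Figure D5:**
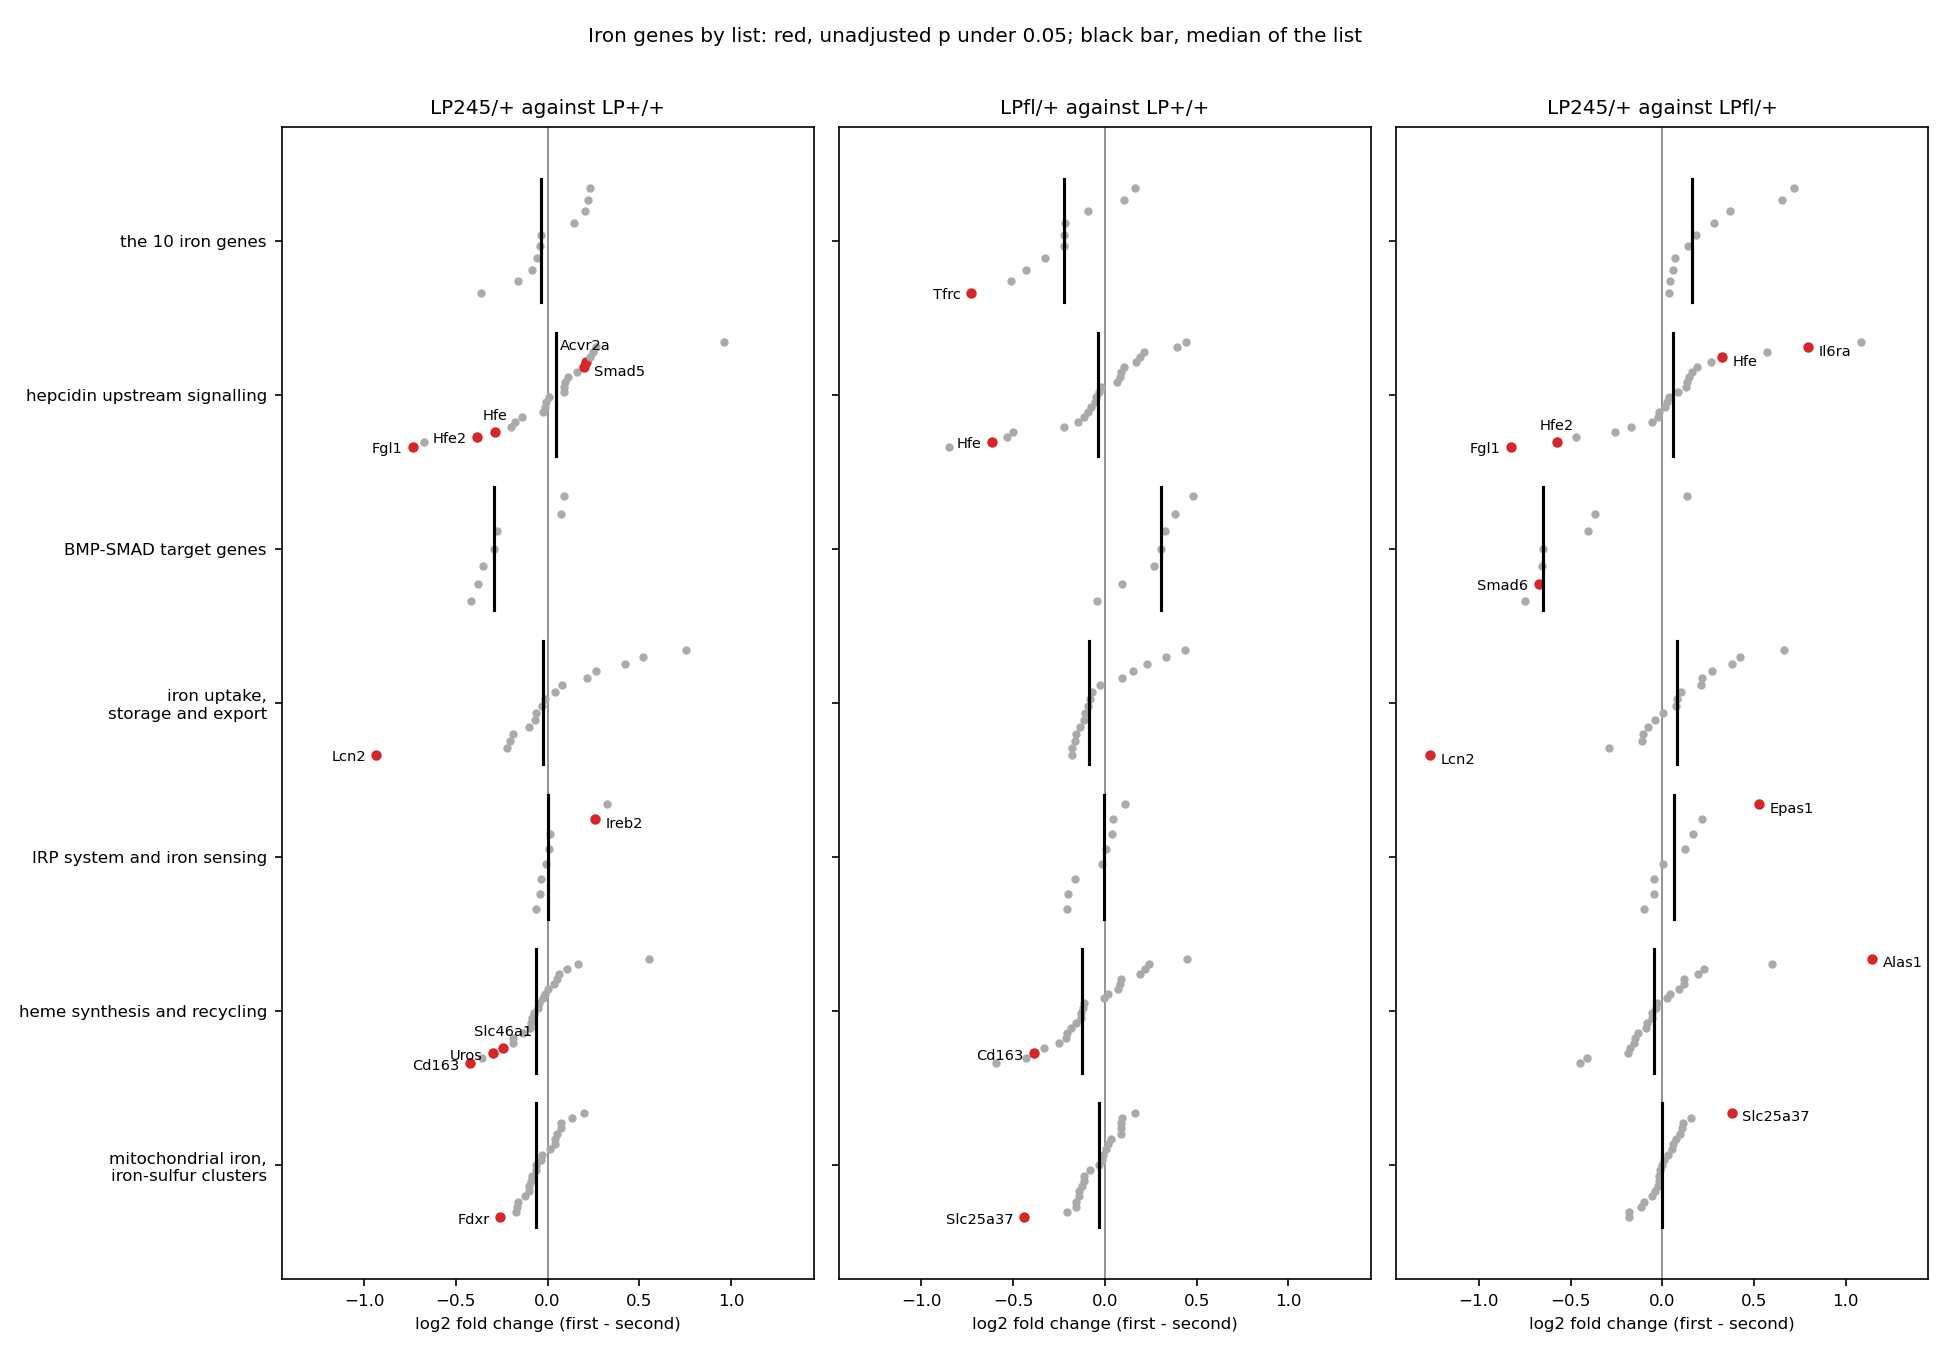
Log2 fold change (x axis, first genotype minus second) of every tested gene of the iron lists in the 3 comparisons, 1 point per gene, grouped by list. Red points with names have an unadjusted p under 0.05, grey points do not, and black bars are list medians. No gene passed adjustment in any of the 3 comparisons.

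Of the 22 tested genes of hepcidin signalling, 5 had an unadjusted p under 0.05 in LP245/+ against LP+/+ (22.7%, beside 5.93% of all genes). In LPfl/+ against LP+/+ it was 1 (4.55%, beside 6.89%), and in LP245/+ against LPfl/+ it was 4 (18.2%, beside 8.51%). The list was not tested as a set. In the first comparison Hfe, Hfe2 and Fgl1 were lower. The activin receptor Acvr2a (0.21 ± 0.090) and the signal transducer Smad5 (0.20 ± 0.080) were higher, both named after their values were seen. Fgl1, a hepatocyte-secreted protein that restrains BMP signals to Hamp, had 5479.9, 7584 and 3586 normalized counts in the LP+/+ livers, 5572 and 6152 in the LPfl/+ livers, and 2186, 3332 and 4419 in the LP245/+ livers. LP+/+ 3 lay within the LP245/+ range, and the log2 fold change was -0.73 ± 0.29 against LP+/+ (adjusted p = 0.806, edgeR) and -0.82 ± 0.31 against LPfl/+ (adjusted p = 0.526). Without LP+/+ replicate 2 the former was -0.45.

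Il6ra, the interleukin-6 receptor, had 878, 1537 and 1637 normalized counts in the LP+/+ livers, 1152 and 704 in the LPfl/+ livers, and 1808, 1526 and 1489 in the LP245/+ livers. LP245/+ lay above LPfl/+ without overlap, as for 12.1% of all genes (0.80 ± 0.27, adjusted p = 0.482, edgeR). With the library series as a covariate the difference was -0.057, LP+/+ 1 being the lowest control. It was 0.49 without LPfl/+ replicate 2. Bmpr1a, a type I BMP receptor, had a log2 fold change of 0.21 ± 0.11 in LPfl/+ against LP+/+ (unadjusted p = 0.0788, adjusted p = 0.755, edgeR). It was named as 1 of the 4 genes with the smallest p in that comparison. With the library series as a covariate it was 0.12, with LP+/+ 1 as the only control in the LPfl/+ series.

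Inflammation raises Hamp through interleukin-6, so the acute phase genes are set beside it. The 10 genes summed to 505776, 544012 and 501446 normalized counts in the LP+/+ livers, 514103 and 499425 in the LPfl/+ livers, and 383514, 494969.6 and 510155 in the LP245/+ livers. All 10 had lower estimates in LP245/+ than in LP+/+ (median log2 fold change -0.29), as had 49.4% of all genes. Of the 10, 3 (Saa1, Orm1 and Orm2) were at an unadjusted p under 0.05, where 2.38% of all genes were lower, and none passed adjustment. LP245/+ 1 had the lowest acute phase sum and more Hamp than any liver but LP+/+ 2. The part of these genes in the Hamp values was not tested.

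Of the 16 tested genes of iron uptake, storage and export, Lcn2 alone had an unadjusted p under 0.05, in both comparisons with LP245/+. Lcn2, a siderophore carrier made in inflammation, had 107, 292 and 94.1 normalized counts in the LP+/+ livers, 207 and 204 in the LPfl/+ livers, and 70.3, 119 and 66.2 in the LP245/+ livers. LP245/+ lay below LPfl/+ without overlap, as for 13.3% of all genes (-1.26 ± 0.45, adjusted p = 0.500, edgeR). With the library series as a covariate the difference was -2.11, a value that rests on LP+/+ 1 as the only control beside LPfl/+. LP+/+ 2 was far above the other controls, and LP245/+ against LP+/+ gave -0.93 ± 0.42 (adjusted p = 0.831, edgeR), or -0.24 without LP+/+ replicate 2. Of the 8 genes of the iron regulatory protein system, Ireb2, iron regulatory protein 2, was higher in LP245/+ than in LP+/+ (0.26 ± 0.10, adjusted p = 0.816, edgeR), and Epas1, a hypoxia-inducible factor, was higher in LP245/+ than in LPfl/+ (0.53 ± 0.19, adjusted p = 0.508), both before adjustment and named after their values were seen.

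Slc25a37, mitoferrin 1, brings iron into mitochondria and is abundant in red cell precursors. It had 738, 935 and 789.6 normalized counts in the LP+/+ livers, 599 and 602 in the LPfl/+ livers, and 819, 741 and 777 in the LP245/+ livers. Both LPfl/+ livers lay below all others. Slc25a37 was named for its small p, and 13.2% of all genes were lower without overlap in LPfl/+ against LP+/+. In LP245/+ against LPfl/+, 12.1% were higher without overlap. The log2 fold change was -0.44 ± 0.12 against LP+/+ (adjusted p = 0.697, edgeR) and 0.38 ± 0.12 for LP245/+ against LPfl/+ (adjusted p = 0.428). With the library series as a covariate these were -0.29 and 0.16. The red cell markers were low in the same livers, but LP245/+ 2, with 741 normalized counts of Slc25a37, had the lowest marker sum. The part of red cells in these values was not tested. Of the 21 genes of mitochondrial iron and iron-sulfur clusters, Fdxr, ferredoxin reductase, was the only other one with an unadjusted p under 0.05, in LP245/+ against LP+/+ (-0.26 ± 0.11, adjusted p = 0.818, edgeR).

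Cd163, the macrophage receptor for hemoglobin bound to haptoglobin, had 598, 790.5 and 619 normalized counts in the LP+/+ livers, 556 and 459 in the LPfl/+ livers, and 473, 454 and 557 in the LP245/+ livers. Every control lay above every altered liver. Cd163 was named for its small p in both comparisons with LP+/+. There 5.79% (LP245/+) and 13.2% (LPfl/+) of all genes were lower without overlap. The log2 fold change was -0.43 ± 0.14 for LP245/+ (adjusted p = 0.795, edgeR) and -0.39 ± 0.15 for LPfl/+ (adjusted p = 0.704), both against the same controls. Within the series of 3 livers the latter was -0.24, with the series as a covariate it was -0.23, and without LP+/+ replicate 2 it was -0.27. The 6 Kupffer cell markers had lower estimates in LP245/+, as had 49.4% of all genes. In LPfl/+, 4 of the 6 had higher ones (median log2 fold change 0.14), as had 49.8% of all genes. The part of these markers was not tested.

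Slc46a1, a heme and folate transporter, had 1211, 1249.6 and 1271 normalized counts in the LP+/+ livers, 1136 and 1038 in the LPfl/+ livers, and 981, 1106 and 1039.7 in the LP245/+ livers. The controls lay above both altered genotypes, where 5.79% (LP245/+) and 13.2% (LPfl/+) of all genes were lower without overlap. Slc46a1 was named for its small p in LP245/+ against LP+/+. The log2 fold change was -0.24 ± 0.086 for LP245/+ (adjusted p = 0.795, edgeR) and -0.19 ± 0.10 for LPfl/+ (adjusted p = 0.757). In the rest of the 22 genes of heme synthesis and recycling, Uros, an enzyme of heme synthesis, was lower in LP245/+ than in LP+/+ (-0.30 ± 0.12, adjusted p = 0.818, edgeR) and Alas1, which starts heme synthesis, was higher in LP245/+ than in LPfl/+ (1.15 ± 0.43, adjusted p = 0.523), both before adjustment and named after their values were seen.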

How the data were processed

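Raw counts per gene of 8 mouse livers were used. Per the labels and the study's methods, the authors made stranded total RNA libraries, sequenced paired 76-base reads, aligned them with STAR to GRCm38 and counted them per gene with STAR on a GENCODE annotation. The deposited values are counts with no normalization. The STAR version, GENCODE release and counted strand are not given in the sources used here. Of 49585 identifiers, 49326 matched a symbol in GENCODE M21 without regard to version and 259 did not. The submitters' notes list STAR and GRCm38.

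Differences were fitted over all 8 livers with edgeR 4.0.16 (TMM, filterByExpr, quasi-likelihood F test; R 4.3.3) and adjusted by Benjamini-Hochberg over 16496 genes. DESeq2 1.42.0 gave size factors and an alternative fit. TPM used summed exon length. Correlations used log2 CPM and all arrangements of the livers. In a simulation on these libraries for LP245/+ against LP+/+, 200 of 16438 genes were changed 4-fold at a dispersion of 0.04. Each of the 200 had a mean of at least 50 counts. The fit called all 200 and 7 others, and 0 when none was changed. Every gene was given the same dispersion, and no series effect was simulated. The simulation does not measure how well smaller differences, or those of more variable genes, would be found. The alternatives were DESeq2, other size factors, no filter, a minimum of 10 counts in each library, a fit of the 2 genotypes alone, no fold-change cutoff, a replicate block, the library series as a covariate, only livers of 1 series, library totals in place of size factors for the hepcidin sum, and each liver left out. With counts below 3 taken as the floor, no member fell under it. Between any pair of livers the counts differed by more than sampling noise.

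The 10 genes and the lists were chosen with earlier results of these data known. Named beyond them were the 4 genes of the wider lists with the smallest p in each comparison, the BMP-SMAD targets, and the 3 genes most like Hamp or Tfrc. For markers, lists of 7 cell types were used. Promoter sequence is not reported here.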

Additional observations from a re-analysis of the deposited data

How the results depend on the processing

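No member and no other named iron gene passed the adjusted threshold under any alternative, and of 1170 alternative values for single genes 1103 kept their direction. Numbers of genes called in LP245/+ against LP+/+, LPfl/+ against LP+/+ and LP245/+ against LPfl/+ were 1, 0 and 0. They became 10, 9 and 56 with DESeq2, 20, 14 and 122 with no filter on low counts, and 3, 3 and 10 with the library series as a covariate. With only the 2 genotypes compared, the third was 51. Deviations of same-numbered livers from their genotype means correlated between -0.0822 and 0.0339. With so few livers per genotype this cannot exclude a pairing by replicate number. With the replicate block 0 genes were called in each comparison. Under that block the log2 fold change turned to Id1 0.035 in the first comparison, Id3 -0.078 in the second and Slc40a1 -0.035 in the third. The cause of these shifts was not tested.

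With the library series as a covariate, log2 fold changes that changed sign were Hamp2 -0.23, Smad6 0.042 in LP245/+ against LP+/+, Hamp2 1.20, Trf 0.013, Fth1 0.13, Bmp6 -0.13, Id1 0.10, Bambi -0.039, Hfe2 -0.044, Id2 -0.13, Il6ra 0.087, Smad6 -0.12, Smad7 0.10 in LPfl/+ against LP+/+ and Hamp2 -1.43, Trf -0.27, Slc40a1 -0.31, Fth1 -0.36, Ftl1 -0.12, Id1 -0.27, Bambi 0.46, Bmpr1a 0.080, Il6ra -0.057, Smad6 0.16, Smad7 -0.076 in LP245/+ against LPfl/+. The cause was not tested.

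Leaving out each liver in turn, the numbers of genes called ran from 0 to 5, 0 to 59 and 0 to 47 in the 3 comparisons, the highest of the latter 2 without LP+/+ replicate 1. Without LP+/+ replicate 3 or LP245/+ replicate 2 the first was 0, and without LP+/+ replicate 1, LP245/+ replicate 1 and LP245/+ replicate 3 it was 3, 4 and 5. Without LPfl/+ replicate 2 the counts for LPfl/+ against LP+/+ and LP245/+ against LPfl/+ were 2 each, and without LP245/+ replicates 1 and 3 that for LP245/+ against LPfl/+ was 2 and 3. The summed Hamp and Hamp2 difference ran from -0.035 to 0.57 in the first comparison, below 0 without LP+/+ replicate 3, and from -0.90 to 0.031 in the second, above 0 without LPfl/+ replicate 1. Log2 fold changes of single genes changed sign in 40 cases. In LP245/+ against LP+/+ they ran for Hamp from -0.040 to 0.56, Hamp2 from -0.23 to 0.94, Fth1 from -0.23 to 0.0020, Ftl1 from -0.16 to 0.067, Id1 from -0.31 to 0.37, Bambi from -0.094 to 0.43, Slc25a37 from -0.13 to 0.029, Smad6 from -0.47 to 0.043 and Smad7 from -0.12 to 0.39. In LPfl/+ against LP+/+ they ran for Hamp2 from -1.56 to 0.22, Slc40a1 from -0.0068 to 0.24, Id1 from -0.82 to 0.18, Atoh8 from -0.22 to 0.33, Fgl1 from -0.16 to 0.37, Id2 from -0.34 to 0.67, Id3 from -1.13 to 0.995 and Smad7 from -0.26 to 0.26. In LP245/+ against LPfl/+ they ran for Tfr2 from -0.10 to 0.15, Slc40a1 from -0.031 to 0.13, Bmp6 from -0.10 to 0.22, Id1 from -0.23 to 0.77, Cd163 from -0.16 to 0.11, Id3 from -1.36 to 0.77, Slc46a1 from -0.12 to 0.0092 and Smad7 from -0.043 to 0.34. Leaving out an LPfl/+ replicate leaves 1 LPfl/+ liver, which is then assumed to vary like the others.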
